A study of Mus musculus with 6 samples.

Results

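The genes described here are the membrane carriers that bring sugars, amino acids, peptides, monocarboxylates and fatty acids into cells, taken from 12 families of solute carrier (Slc) genes. Members were chosen by symbol alone: families 1, 2, 3, 5, 6, 7, 15, 16, 27, 36, 38 and 43. This gave 114 of the 19938 genes measured, of which 111 are carriers. The other 3 symbols, Slc2a4rg-ps, Slc6a19os and Slc7a6os, are named after a carrier without being one and were counted with the rest. Of these, Slc2a4rg-ps was higher in the hypomethylated tumours by 0.20 (limma, adjusted p = 0.0372), a call lost without any one of the 6 tumours, and the others were not called.

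Expression was measured on arrays in 6 colon tumours of ApcMin/+ mice, in which a copy of Apc, a brake on Wnt signalling, is truncated. The 3 control tumours had the genotype Dnmt1chip/+; ApcMin/+, with a hypomorphic chip allele and a normal allele of the maintenance DNA methyltransferase gene Dnmt1. The 3 hypomethylated tumours had the genotype Dnmt1chip/c; ApcMin/+, in which the normal allele is replaced by c, a knockout allele. All mice were hybrids of C57BL/6 and 129Sv4, and all were given 2% (w/v) DSS (dextran sodium sulfate), which damages the colon lining, when 6 weeks old. Tumours were collected at an age of 20 weeks. The reduced Dnmt1 function is that of the whole animal, so other cells of a tumour carry it too. Whether each tumour came from its own mouse is not in the labels. The sample descriptions share a number among the 3 hypomethylated tumours and another between 2 of the 3 control tumours, so the p-values rest on the spread among these tumours alone. An effect of a single mouse and an effect of genotype cannot be told apart.

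In the colon, absorptive cells at the surface take up short-chain fatty acids made by bacteria, above all butyrate, through monocarboxylate carriers, together with remaining sugars and amino acids. Dividing cells draw on other carriers: exchangers for large neutral amino acids and for cystine, and sodium-coupled carriers for glutamine. Several amino acid exchangers are pairs of a heavy chain, made by Slc3a1 or Slc3a2, and a light chain of the Slc7 family that forms the path through the membrane.

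The values are log2 values centred on the median of the 6 tumours for each probe set. Apart from the inference given below they carry no expression level, and no gene's level can be set against another's. The base of the logarithm is not stated in the labels and was inferred from the values; the folds printed rest on it. In a gene with a single probe set, the centring gives the 2 middle tumours the same value with opposite sign. A gene was called higher or lower where limma, fitted over all genes, gave a Benjamini-Hochberg adjusted p under 0.05. Dnmt1 itself was lower by this test in the hypomethylated tumours, with a log2 difference of -0.87 (SE 0.06, adjusted p = 0.000313 in limma), though the position of its probes relative to the changed exons is not known here. All 9 epithelial markers measured, Epcam and Cdh1 among them, were taken to lie at 8 or above in every tumour before centring, an inference from the step size of the values. By the same inference 48 of the 114 members did so, against 51.8% of all genes. Of the 9 members called with a difference of at least 1, 5 did so, and Slc3a1, Slc5a8, Slc16a5 and Slc16a12 did not. Nor did Slc6a7, Slc5a12 and Slc2a4rg-ps.

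Of the 114 members, 18 were higher and 21 lower in the hypomethylated tumours, 34.2% together, against 32.0% of all genes tested. Higher members made up 15.8% against 10.7% of all genes, and lower members 18.4% against 21.3%, so the counts were near those of the array as a whole. In all 39 called members the values of the groups did not overlap; over all members the groups were apart in 58, or 50.9%, against 46.4% of all genes. The median difference over the members was 0.03 on the log2 scale, against -0.01 over all genes. Changes of at least 1 on the log2 scale, or 2-fold, were found in 6 higher members (5.26%, against 2.34% of all genes) and 3 lower members (2.63%, against 1.55%). Of the 75 members not called, 62 differed by less than 0.25.

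Calls were then counted by substrate. Carriers of sugars and inositol rose in 6 of 19 cases and fell in none, with a median difference of 0.17. Amino acid carriers fell in 16 of 46 cases and rose in 6 (median -0.07). Monocarboxylate carriers rose in 3 of 6 (median 0.175), and fatty acid carriers fell in 1 of 6 (median -0.03). Together 31.6% of the sugar and inositol carriers and 47.8% of the amino acid carriers were called. Of all genes 32.0% were called, 10.7% higher and 21.3% lower. No difference between substrate classes was tested. By family, Slc5 had 5 higher and 0 lower of 13, Slc2 had 4 and 0 of 13, Slc38 had 0 and 5 of 11, and Slc7 had 2 and 6 of 16. Slc6 had 3 higher and 2 lower of 21, Slc16 had 2 and 2 of 13, Slc1 had 1 and 2 of 7, and Slc3 had 1 and 1 of 2. Slc27, Slc36 and Slc43 had 1 lower member each, of 6, 4 and 3, and none of the 5 Slc15 members was called.

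**Figure D1:**
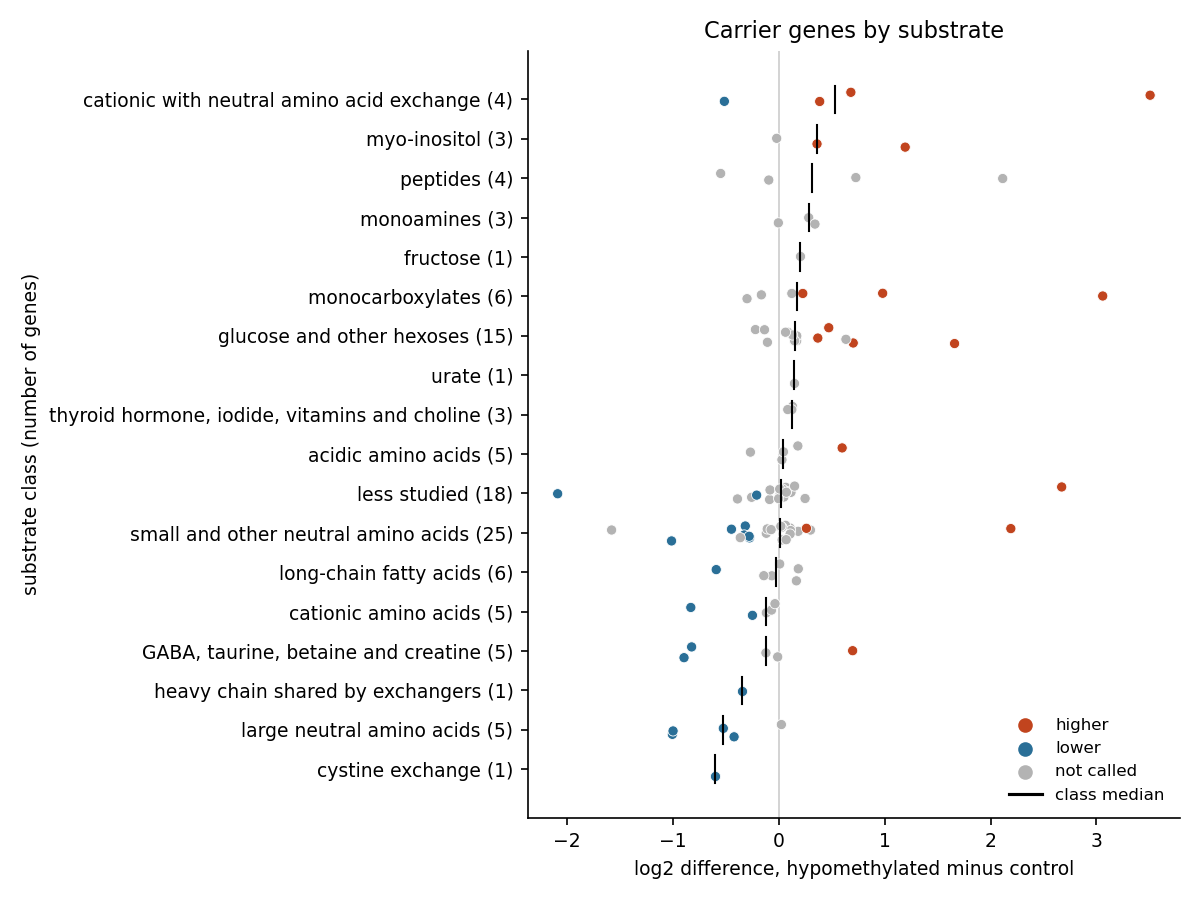
Log2 difference between hypomethylated and control tumours (x axis) for the 111 carriers, by substrate class (y axis, with the number of genes). Each point is a gene, coloured by its call in limma, and the black bar is the class median. Large neutral amino acid carriers lie mostly on the left, at -1.004 to 0.02, and the farthest point on the right, at 3.51, is Slc3a1.

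The promoters of 4 members are shown because they carry the largest changes or belong together: Slc3a1 and Slc7a9, the heavy and light chain of a single exchanger that rose together, Slc5a8, which in human colon cancer is known for silencing by promoter methylation, and Slc16a12, the member that fell most. Each line gives the 250 bases before the start of the gene, 5′ to 3′, from RefSeq on GRCm38.p6, with CpG dinucleotides, the sites of DNA methylation, in capitals.
Slc3a1 (chr17:85028097-85028346, plus strand): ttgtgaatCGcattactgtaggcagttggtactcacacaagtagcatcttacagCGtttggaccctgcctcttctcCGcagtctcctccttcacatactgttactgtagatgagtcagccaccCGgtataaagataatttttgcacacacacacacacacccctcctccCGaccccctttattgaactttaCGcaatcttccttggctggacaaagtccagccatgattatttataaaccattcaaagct
Slc7a9 (chr7:35448842-35449091, plus strand): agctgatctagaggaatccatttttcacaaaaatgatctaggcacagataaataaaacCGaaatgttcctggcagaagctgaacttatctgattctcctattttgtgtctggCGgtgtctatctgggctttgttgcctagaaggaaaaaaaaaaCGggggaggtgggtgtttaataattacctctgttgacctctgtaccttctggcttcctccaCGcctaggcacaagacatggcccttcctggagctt
Slc5a8 (chr10:88885742-88885991, plus strand): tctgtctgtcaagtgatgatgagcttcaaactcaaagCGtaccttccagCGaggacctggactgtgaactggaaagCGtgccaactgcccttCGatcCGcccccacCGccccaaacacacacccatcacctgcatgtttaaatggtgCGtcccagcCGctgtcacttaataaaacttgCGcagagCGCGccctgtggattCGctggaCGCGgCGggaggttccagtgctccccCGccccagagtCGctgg
Slc16a12 (chr19:34747329-34747578, minus strand): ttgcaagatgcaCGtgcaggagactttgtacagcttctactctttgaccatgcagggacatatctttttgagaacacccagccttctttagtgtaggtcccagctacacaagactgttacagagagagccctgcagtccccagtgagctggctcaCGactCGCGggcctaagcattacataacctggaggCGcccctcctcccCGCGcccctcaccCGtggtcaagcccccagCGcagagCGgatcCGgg
These stretches held 6, 4, 17 and 11 CpG dinucleotides. Methylation was not measured in these samples.

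Slc3a1 makes the heavy chain that brings the cystine and dibasic amino acid exchanger to the apical membrane, and loss of it or of its light chain causes cystinuria. It had the largest difference of any member. Its centred log2 values were -1.22, -1.47 and -1.30 in controls, against 1.22, 2.84 and 2.47 in hypomethylated tumours. The groups lay far apart, with hypomethylated tumour 1 below the other hypomethylated tumours. Controls averaged -1.33 ± 0.13 (SD, n = 3), and hypomethylated tumours averaged 2.18 ± 0.85 (SD, n = 3). Slc3a1 rose by 3.51 ± 0.38 (SE), 11.4-fold (limma, adjusted p = 0.000963), and by 2.88 with quantile normalization. The exact two-sided permutation test of this gene over the 20 assignments of the tumours gave p = 0.1, the smallest that 3 against 3 allows.

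Slc7a9, the light chain of this exchanger, rose by 0.68 ± 0.15 (SE), 1.60-fold (limma, adjusted p = 0.0137). Its values were -0.36, -0.49 and -0.08 in control tumours and 0.57, 0.45 and 0.08 in the hypomethylated tumours, so control tumour 3 and hypomethylated tumour 3 lay close together. The call was lost without control tumour 1. The promoter of Slc3a1 printed above holds CAAAGTCCA, a match to the binding motif of the hepatocyte nuclear factor HNF4. Among the 84 members with a promoter sequence it was the only one with a match within 300 bases on either strand. Such a match is found in 0.477% of all promoters and in 0.901% of those of all higher genes. A match in the letters is a description of the sequence and not a binding site.

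Slc3a2, the heavy chain shared by most other light chains, went the other way: it fell by 0.35 ± 0.10 (SE), with control values of 0.05, 0.07 and 0.14 and hypomethylated values of -0.05, -0.35 and -0.39 (limma, adjusted p = 0.0329). This call was lost with every tumour left out in turn except hypomethylated tumour 1. Of its 6 light chains measured, 4 fell, where 21.3% of all genes were lower. Slc7a5, which imports leucine and other large neutral amino acids into dividing cells, was at 0.15, 0.18 and 0.15 in the control tumours and at -0.23, -0.41 and -0.15 in the hypomethylated tumours. The groups did not overlap, and Slc7a5 fell by 0.42 ± 0.08 (SE; limma, adjusted p = 0.0062).

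Slc7a6, which exchanges cationic for neutral amino acids, fell by 0.51 and Slc7a11, the cystine-glutamate exchanger that feeds glutathione synthesis, by 0.60. The largest fall among the light chains was that of Slc7a8, a basolateral carrier of neutral amino acids, which fell by 0.998 ± 0.24 (SE; limma, adjusted p = 0.019). Its control values were 0.75, 0.12 and 1.07 and its hypomethylated values -0.12, -0.31 and -0.61, so that control tumour 2 lay near the hypomethylated tumours. The call was lost without control tumour 1, hypomethylated tumour 2 or hypomethylated tumour 3. Slc7a7, the basolateral exchanger for cationic amino acids that is mutated in lysinuric protein intolerance, rose instead, by 0.39 ± 0.06 (SE; limma, adjusted p = 0.00294), from -0.23, -0.16 and -0.17 to 0.26, 0.18 and 0.16. Slc7a10 differed by 0.07 (SE 0.08, limma adjusted p = 0.572).

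**Figure D2:**
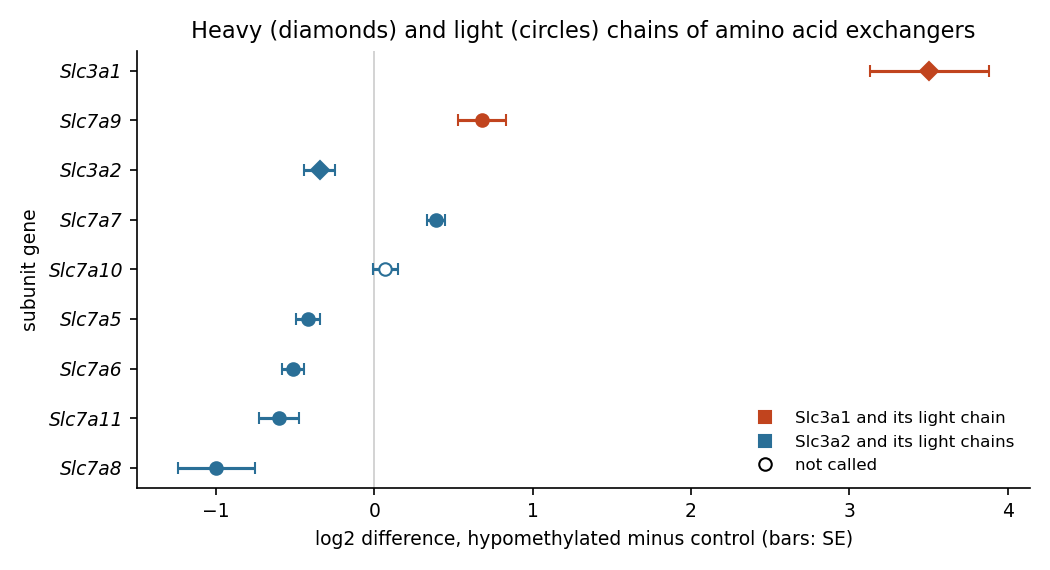
Log2 difference between hypomethylated and control tumours with its SE (x axis) for heavy chains (diamonds) and light chains (circles) of amino acid exchangers (y axis). Slc3a1 and Slc7a9 lie at 3.51 and 0.68, and Slc3a2 with 4 of its 6 light chains lies between -0.998 and -0.35; the open symbol was not called.

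Among the monocarboxylate carriers, Slc5a8 couples the uptake of butyrate, lactate and pyruvate to sodium at the apical membrane of colonocytes. Its control values were -1.80, -3.39 and -0.91 and its hypomethylated values 0.91, 1.20 and 0.97. Control tumour 2 was by far the lowest, while the hypomethylated tumours agreed closely. Slc5a8 rose by 3.06 ± 0.55 (SE), 8.33-fold (limma, adjusted p = 0.00632), and by 2.38 either without control tumour 2 or with quantile normalization.

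Slc16a1, the proton-linked carrier of lactate, pyruvate and butyrate, rose by 0.98 ± 0.13 (SE), 1.97-fold (limma, adjusted p = 0.00229). It was at -0.46, -0.31 and -0.40 in the control tumours and at 0.31, 0.87 and 0.58 in the hypomethylated tumours, with no overlap. Slc5a12, a related sodium-coupled carrier, rose by 0.23, a call that was lost without control tumour 1, control tumour 2, hypomethylated tumour 2 or hypomethylated tumour 3. Slc16a3, the lactate exporter of glycolytic cells, differed by -0.30 ± 0.12 (SE; limma, adjusted p = 0.0956), and its groups overlapped.

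Large changes in both directions appeared in less studied members of the Slc16 family. Slc16a5, whose physiological substrate is not settled, was at -1.32, -1.45 and -0.86 in the control tumours and at 0.86, 1.95 and 1.58 in the hypomethylated tumours. It rose by 2.67 ± 0.28 (SE), 6.37-fold (limma, adjusted p = 0.000896). Slc16a12, a creatine carrier that is mutated in a form of juvenile cataract, fell by 2.09 ± 0.14 (SE), 4.25-fold (limma, adjusted p = 0.000294), with a difference of -2.67 after quantile normalization. Its control values of 1.00, 0.89 and 0.85 lay close together, and its hypomethylated values were -0.85, -1.43 and -1.25. Slc6a8, the main creatine carrier of most tissues, rose by 0.70 ± 0.14 (SE; limma, adjusted p = 0.00896).

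**Figure D3:**
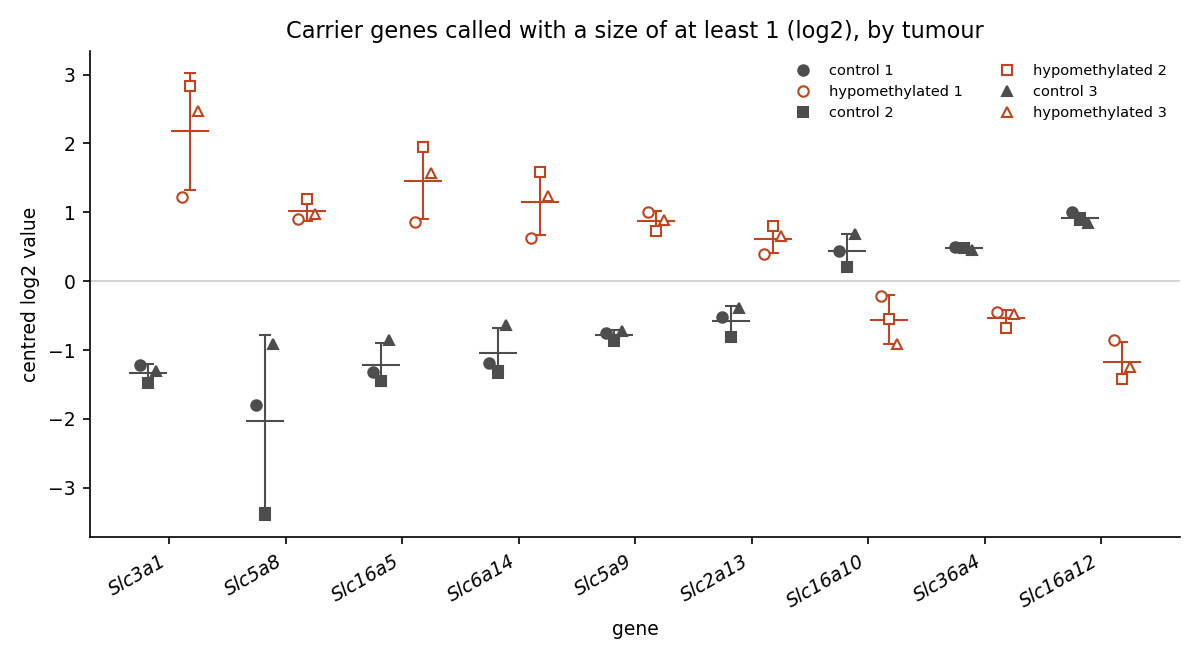
Centred log2 values (y axis) of the 9 members called with a difference of at least 1 (x axis), with control tumours as filled grey and hypomethylated tumours as open orange symbols. Symbol shape gives the replicate number, horizontal bars the group mean and whiskers the SD (n = 3). The groups do not overlap in any of the 9, and the widest spread within a group, from -3.39 to -0.91, is that of Slc5a8 in the control tumours.

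The largest difference among sugar carriers was that of a sodium-coupled one. Slc5a9, a carrier of mannose and related sugars, was at -0.75, -0.87 and -0.73 in the control tumours and at 1.01, 0.73 and 0.89 in the hypomethylated tumours. The values lay close together within each group, and Slc5a9 rose by 1.66 ± 0.09 (SE), 3.16-fold (limma, adjusted p = 0.000164). Slc5a1, the glucose and galactose carrier of the intestinal brush border, rose by 0.47 ± 0.10 (SE; limma, adjusted p = 0.0105), from -0.13, -0.24 and -0.31 to 0.17, 0.13 and 0.44.

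The facilitated glucose carrier Slc2a1, present in most dividing cells, rose by 0.37 ± 0.09 (SE; limma, adjusted p = 0.0225). Its values were -0.28, -0.24 and -0.07 in control tumours and 0.10, 0.33 and 0.07 in the hypomethylated tumours. The groups came close in control tumour 3 and hypomethylated tumour 3, and the call was lost without control tumour 1, control tumour 2 or hypomethylated tumour 2. Slc2a10, mutated in arterial tortuosity syndrome, rose by 0.70. Slc2a2, the basolateral glucose carrier of the small intestine and liver, Slc2a5, the fructose carrier, and Slc2a3, a high-affinity glucose carrier of neurons and blood cells, differed by 0.17, 0.20 and -0.22 and were not called.

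Of the myo-inositol carriers, the proton-coupled Slc2a13 rose by 1.19 ± 0.14 (SE; limma, adjusted p = 0.00123), from -0.52, -0.81 and -0.40 to 0.40, 0.80 and 0.66. Slc5a3, which is induced by high osmolarity, rose by 0.36, a call that was lost with each tumour left out except hypomethylated tumour 3. Slc5a11 differed by -0.02 and was not called. The 2 genes of this class that rose thus belong to different families.

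Neutral amino acid carriers moved in both directions. Slc6a14, which takes up nearly all neutral and cationic amino acids with sodium and chloride and is prominent in the distal gut, was at -1.20, -1.30 and -0.63 in the control tumours and at 0.63, 1.59 and 1.23 in the hypomethylated tumours. It rose by 2.19 ± 0.27 (SE), 4.57-fold (limma, adjusted p = 0.00151). Slc6a7, a proline carrier of the brain, rose by 0.26, a call lost without any one control tumour. Slc6a19, the main neutral amino acid carrier of the small intestinal brush border, was at -0.234, -0.419 and -0.004 in controls and at 0.165, 0.072 and 0.004 in hypomethylated tumours, without overlap. It differed by 0.30 ± 0.11 (SE; limma, adjusted p = 0.0771) and was not called.

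Falls outnumbered rises among the small and other neutral amino acid carriers, as they did over all genes. Of this class of 25 genes, 7 fell and 2 rose (median 0.01). The shares of all genes were 21.3% lower and 10.7% higher. Slc36a4, a high-affinity carrier of proline and tryptophan, was at 0.49, 0.49 and 0.45 in the control tumours and at -0.45, -0.68 and -0.48 in the hypomethylated tumours. It fell by 1.01 ± 0.07 (SE; limma, adjusted p = 0.000317). Of Slc1 and Slc38 carriers that take glutamine, Slc1a5 fell by 0.32, Slc38a1 by 0.45 and Slc38a2 by 0.33, with limma adjusted p-values of 0.00647, 0.0038 and 0.00495. Slc38a3 and Slc38a5 differed by 0.03 and 0.06 and were not called. The broader neutral amino acid carrier Slc6a14, given above, rose by 2.19, and Slc6a19 differed by 0.30 and was not called. Slc1a4, a carrier of alanine, serine and cysteine, fell by 0.31, as did the lysosomal carriers Slc38a9, an arginine sensor of the growth kinase complex mTORC1, by 0.28, and Slc38a7, a glutamine exporter, by 0.28. The call of Slc38a7 was lost with each tumour left out except hypomethylated tumour 1, and that of Slc38a9 without control tumour 1 or hypomethylated tumour 3. Slc38a9 is the mean of 2 probe sets that differed. One was at 0.28, 0.16 and 0.23 in controls and at -0.16, -0.31 and -0.27 in hypomethylated tumours. In the other the groups overlapped, at 0.16, 0.03 and -0.06 against -0.03, 0.03 and -0.15. Slc38a10, placed among the less studied genes, fell by 0.21, with a call lost with each tumour left out except hypomethylated tumour 1, and also with quantile normalization or array centring.

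Slc38a4, an imprinted gene of the same family, showed the widest spread among the members that fell in mean. It was at 0.24, 0.42 and 0.02 in the control tumours and at -0.02, -1.66 and -2.37 in the hypomethylated tumours. Hypomethylated tumour 1 was thus next to the control tumours, and the difference of -1.58 ± 0.54 (SE) was not called (limma, adjusted p = 0.0624).

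Carriers of large neutral amino acids were lower in 4 of 5 cases, Slc7a5 and Slc7a8 among them, and higher in none (median -0.52). Over all genes 21.3% were lower and 10.7% higher. The call of Slc7a8 was lost without some single tumours, as given above. Slc16a10, which lets aromatic amino acids leave the cell, was at 0.43, 0.21 and 0.69 in the control tumours and at -0.21, -0.55 and -0.92 in the hypomethylated tumours. It fell by 1.004 ± 0.19 (SE; limma, adjusted p = 0.00779). Slc43a2, a carrier of branched-chain amino acids and methionine, fell by 0.52 (SE 0.09), while its relative Slc43a1 differed by 0.02 and was not called.

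Cationic amino acid carriers were lower in 2 of 5 cases, where 21.3% of all genes were lower. Slc7a2, the inducible arginine carrier, fell by 0.83 ± 0.12 (SE; limma, adjusted p = 0.00242), from 0.26, 0.31 and 0.32 to -0.26, -0.65 and -0.69. Slc7a4 fell by 0.25, a call lost with quantile normalization and with each tumour left out except hypomethylated tumour 3. Of the acidic amino acid carriers, Slc1a1, which takes up glutamate, aspartate and cysteine at the apical membrane, rose by 0.60 ± 0.09 (SE; limma, adjusted p = 0.00301). It was at -0.45, -0.27 and -0.19 in the control tumours and at 0.19, 0.39 and 0.31 in the hypomethylated tumours, and the other 4 genes of this class were not called.

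Slc6a12 and Slc6a13, carriers of betaine and GABA that lie next to each other in the RefSeq gene order, fell by 0.82 ± 0.10 and 0.89 ± 0.11 (SE), with limma adjusted p-values of 0.00136 and 0.00179. Slc6a6, the taurine carrier, differed by -0.12 and was not called. None of the 3 monoamine carriers was called; Slc6a4, the serotonin carrier of the gut epithelium and of neurons, differed by 0.34 ± 0.11 (SE; limma, adjusted p = 0.0533) without overlap of the groups.

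Slc15a1, the apical carrier of dipeptides and tripeptides, had a difference of 2.11 ± 0.67 (SE), 4.33-fold, and was not called (limma, adjusted p = 0.0508). Its control values were -1.84, -2.99 and -0.04 and its hypomethylated values 0.61, 0.82 and 0.04. Control tumour 3 was next to hypomethylated tumour 3, and the other control tumours were far lower. Without control tumour 3 the difference was 2.91 and was called (limma, adjusted p = 0.00422), and without control tumour 2 it was 1.43 and was not (adjusted p = 0.104). It was also called with quantile normalization (difference 1.57, adjusted p = 0.0266), with each array set to its own median (0.0493), with array weights (0.0148) and with the description number as a random block (0.0236). It was not called with the replicate block (limma, adjusted p = 0.0897), robust eBayes (0.0881), genes of 1 probe set only (0.0515) or the median of probe sets (0.051). Nor was it called without control tumour 1 (0.132) or without hypomethylated tumour 1, 2 or 3 (0.1, 0.142 and 0.0828). Slc15a2 and Slc15a3 differed by 0.73 and -0.55 with overlapping groups. Of the fatty acid carriers, Slc27a1, a transport protein of fat and muscle cells that also activates fatty acids, fell by 0.59 ± 0.07 (SE; limma, adjusted p = 0.00143), from 0.25, 0.25 and 0.29 to -0.26, -0.46 and -0.25. Slc27a4, the family's main member in the intestine, and Slc27a2 differed by 0.17 and 0.18 and were not called.

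The tumours of a group were not alike in distance from the other group. Among the 18 higher members, control tumour 3 was the control nearest to the hypomethylated tumours in 11, and hypomethylated tumour 1 was the hypomethylated tumour nearest to the controls in 10. Among the 21 lower members, hypomethylated tumour 1 was the nearest in 16. In these lower members the nearest control was tumour 1 in 6, tumour 2 in 7 and tumour 3 in 8. The nearest tumour was not counted over all genes, so whether this is particular to the members is not known. Control tumour 3 is also the tumour whose description carries a number of its own. Without control tumour 1 the counts were 12 higher and 15 lower, 23.7% of members together against 21.1% of all genes.

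Several lists of markers, of epithelial differentiation and of other cells, moved with these groups. For comparison, 10.7% of all genes were higher and 21.3% lower. Of 9 surface colonocyte markers all 9 were higher, with list means of -2.33 to -1.13 in the control tumours and 1.12 to 1.77 in the hypomethylated tumours, and their order over the tumours put control tumour 3 nearest to the other group. Of 9 general epithelial markers 7 were higher, with list means of -0.16 to -0.15 and 0.13 to 0.28. Goblet cell markers were higher in 6 of 7, with means of -2.27 to -0.42 and 0.34 to 0.68, and enteroendocrine markers were higher in 6 and lower in 1 of 9, with means of -0.35 to -0.11 and 0.23 to 0.39. Small intestinal enterocyte markers were higher in 3 of 9, with means of -0.39 to -0.18 and 0.20 to 0.44.

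Fibroblast markers were lower in 7 of 10, with list means of 0.09 to 0.49 in the control tumours and -0.62 to -0.08 in the hypomethylated tumours. Smooth muscle markers were lower in 3 of 9 (0.10 to 0.33 and -0.27 to -0.08), endothelial markers in 6 of 8 (0.10 to 0.22 and -0.43 to -0.08) and macrophage markers in 4 of 8 (-0.02 to 0.50 and -0.85 to 0.01). Neutrophil markers were higher in 1 and lower in 1 of 7, with means of -0.09 to 0.05 and -0.18 to 0.30. Of the T and NK cell markers none of 8 was called, with means of -0.11 to 0.15 and -0.27 to 0.46. B and plasma cell markers were higher in 1 of 6 (-0.38 to 0.35 and -0.12 to 0.83), and none of 7 mast cell markers was called (-0.07 to 0.60 and -0.37 to 0.06). Of enteric neuron markers 1 of 8 was lower (-0.19 to 0.04 and -0.04 to 0.05) and of enteric glia markers 1 of 5 was higher (-0.24 to -0.03 and 0.05 to 0.19). The share called was 33.3% for smooth muscle, 16.7% for B and plasma cells, 12.5% for enteric neurons and 20.0% for enteric glia. These shares were near or below the 32.0% of all genes. Whether the cells of any list had a part in the carrier differences was not tested. In whole tumours fewer cells of a type and less RNA per cell cannot be told apart. As the values are centred, whether a marker is absent cannot be read from them.

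**Figure D4:**
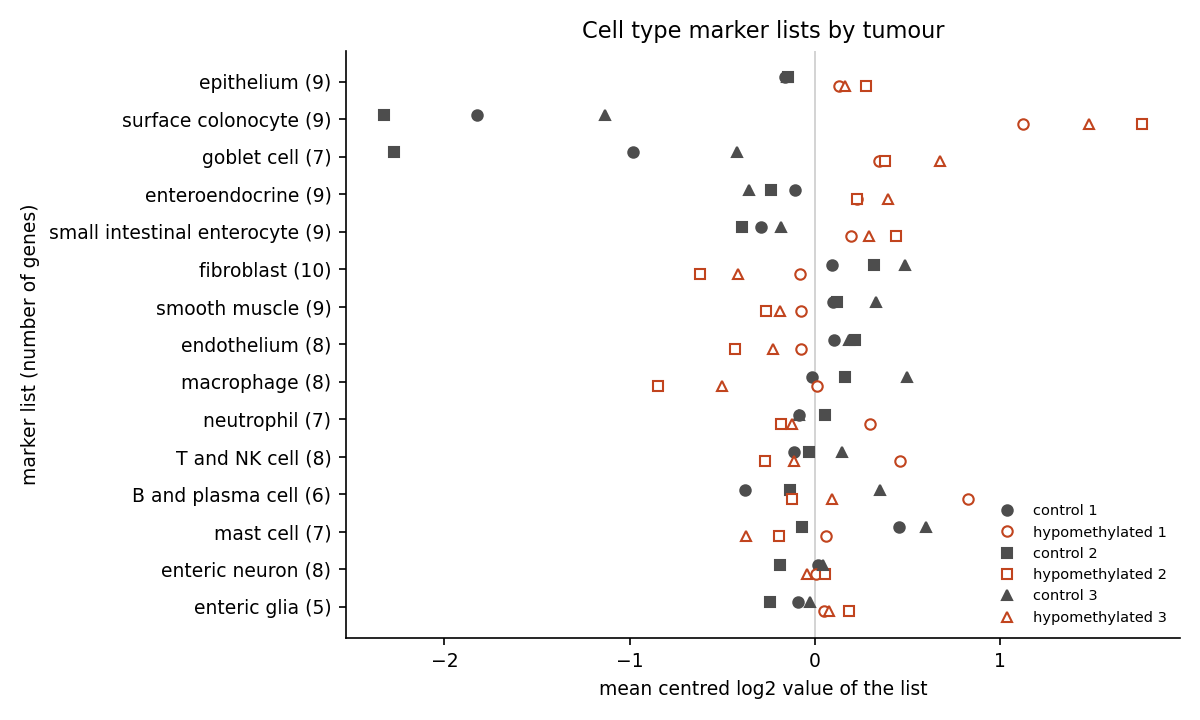
Mean centred log2 value (x axis) of each cell type marker list (y axis, with the number of genes measured) in each tumour, control filled grey and hypomethylated open orange. The surface colonocyte list has the widest gap, from -1.13 in the highest control tumour to 1.12 in the lowest hypomethylated tumour, and fibroblast and endothelial lists are lower in all 3 hypomethylated tumours.

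Genes that act with the carriers were read from lists of partners, digestion and metabolism, chosen with earlier results known. The counts of these lists stand against 10.7% of all genes higher and 21.3% lower. No list was tested as a set. Among enzymes that release sugars and amino acids at the brush border 5 of 13 rose and 1 fell: the meprin subunits Mep1a and Mep1b by 3.47 and 3.46, the peptidases Dpep1 by 2.98 and Xpnpep2 by 0.88, and Mgam, which splits maltose and short starch chains, by 0.62, against a fall of Dpp4 by 0.57. Of carrier partners and scaffolds 2 of 8 rose, the trafficking genes Myo5b (0.42) and Rab11a (0.24), and the scaffold Pdzk1 fell by 0.24; Bsg, the chaperone of Slc16a1, differed by 0.16 and was not called. Of 16 sugar use genes 6 rose and 1 fell, led by hexokinase Hk2 (1.09) and the phosphofructokinase Pfkp (1.02), with Hk1 at 0.35 and Ldhb lower by 0.81 (-0.81). Of 10 genes for the use of lactate, short-chain fatty acids and ketones 6 rose and none fell, among them Acsm3 (0.91), Bdh1 (0.49), Acss2 (0.47) and Oxct1 (0.40).

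Of 21 genes of amino acid synthesis and breakdown 5 rose and 8 fell. The serine synthesis enzyme Phgdh fell by 0.66 and the transaminase Gpt2 by 0.89, while Cth, which makes cysteine, rose by 0.99 and Got1 by 0.55. Of 13 cystine and glutathione genes 7 rose and 1 fell, with Nqo1 at 1.59, Srxn1 at 1.46, Gss at 0.61 and Gpx2 at 0.47; Slc7a11, the cystine carrier, fell in the same tumours. Amino acid response genes rose in 3 of 12 cases, led by Stc2 (0.80) and Nupr1 (0.75), and fell in 2, Eif2ak4 (-0.40) and Ddit4 (-0.35), and Atf4 itself differed by 0.08 and was not called. Of 19 mTORC1 sensing genes 3 were lower, Depdc5 (-0.30), Tsc2 (-0.20) and Sesn1 (-0.28), and none was higher. The share lower in this list, 15.8%, was below the 21.3% of all genes.

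Fatty acid uptake and activation genes rose in 5 of 16 and fell in 3. The largest change was that of Fabp2, a fatty acid binding protein of enterocytes, at 4.54 (limma, adjusted p = 0.00251), with Dgat2 at 1.503, the nuclear receptors Pparg and Ppard at 1.44 and 0.84, and Fabp5 at -0.91. Serotonin and amine genes rose in 3 of 7 and fell in 2, with the vesicle carrier Slc18a1 at -1.49, the synthesis enzyme Tph1 at 0.55, the receptor Htr4 at 0.67 and Maoa at 1.06.

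The CpG content of the promoters was compared by call. Of the 12 higher members with a promoter sequence 5 were CpG-rich, with an observed over expected ratio of at least 0.6 and a GC content of at least 50% in the window of 300 bases around the start, or 41.7%. Of the 16 lower members 10 were CpG-rich (62.5%), and of the 56 not called 24 (42.9%). Over all genes the shares were 47.6% of higher, 70.5% of lower and 43.2% of those not called. Lower genes had the highest share both among the members and over all genes. Of the 6 members higher by at least 1 on the log2 scale, 4 had a promoter sequence, and Slc16a5 and Slc5a9 had none. The 4 were not alike: the ratio was 0.49 for Slc3a1, 0.73 for Slc5a8, 0.19 for Slc6a14 and 0.43 for Slc2a13. These are counts of letters in the reference sequence and no measure of methylation.

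**Figure D5:**
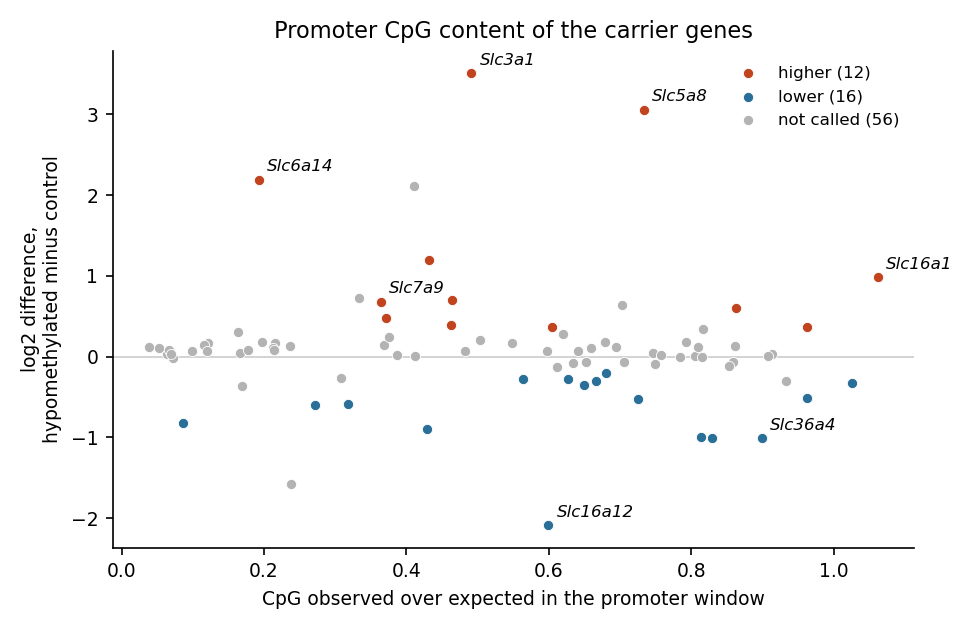
CpG observed over expected in the 300 bases around the start (x axis) against the log2 difference between hypomethylated and control tumours (y axis) for the 84 members with a promoter sequence, coloured by call. Higher members range from 0.19 (Slc6a14) to 1.06 (Slc16a1) on the x axis.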

How the data were processed

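Tumour RNA, purified on columns, was labelled with biotin and hybridised, per the labels' protocols. The deposited log2 values come as a single table of 28856 probe sets and 6 tumours. The authors centred each probe set on its median, as 100% of rows have a median within 1e-06 of 0. Not given in the sources used here: array normalization, summary method and log base. Values lie on binary steps of 20 or 21 places, and the coarser step was read as a probe set at 8 or above in each tumour before centring. Probe sets with 1 gene symbol (21789; 1621 had several and 5446 none) were averaged per gene, giving 19938 genes, 19856 of them matched by Entrez number to RefSeq (GRCm38.p6). Only 3 members have several probe sets.

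Groups follow the titles. limma 3.58.1 (R 4.3.3; lmFit and eBayes without trend, two-sided, Benjamini-Hochberg over all genes, 3.02 prior degrees of freedom) compared 3 with 3 tumours. Only the limma fit was tested on simulated data. Members, the 10 pathway and 15 cell type lists (274 entries, 254 measured) and tests were chosen with earlier results of these data known. Members called with a size of at least 1 are given by tumour, other called members with their difference, and 25 carriers in any case, with up to 4 called genes per pathway list; further genes, Slc38a4, Slc15a2, Slc15a3, Slc43a1, Slc5a11, Slc7a10, Slc38a3, Slc38a5, Dpep1, Dpp4, Fabp2, Bsg and Atf4 among them, were named after their values were seen, as were the promoters shown and the motif. Same-numbered tumours did not deviate together (correlations of -0.29, -0.31 and -0.22). Arrays carry no counts, and their number limits the precision. Figures were drawn with matplotlib 3.10.9.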

Additional observations from a re-analysis of the deposited data

How the results depend on the processing

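The counts of 18 higher and 21 lower members were recomputed under 16 other settings. At an adjusted p under 0.01 they were 10 and 13, and with a change of at least 1.5-fold 11 and 9. With the replicate number as a block they were 14 and 17; the block has no ground in the labels, the correlations of same-numbered tumours being below 0. With the description number as a random block they were 23 and 25, at a consensus correlation of -0.166. With array weights they were 25 and 25, and control tumour 1 had a weight of 7.69 against 0.515 to 0.986 for the others. With quantile normalization the counts were 23 and 19, after centring of each array 21 and 20, and with robust eBayes 19 and 21. With genes of 1 probe set only they were 18 and 19, and with the median of probe sets 18 and 21. Leaving out each tumour in turn gave 12 to 19 higher and 15 to 23 lower members. The share of members called moved with that of all genes. It was 27.2% against 21.4% with the replicate block, 42.1% against 39.8% with the random block and 43.9% against 39.8% with array weights. Of the 39 called members 26 kept their call under every alternative fit run on them, and 13 lost it under at least 1. No called member changed direction. A planned filter on low intensity was not run, since it needs each gene's mean intensity, and centred values keep at most whether all values were 8 or above. With no background signal to set values against, folds of dim genes may be understated.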

Other observations

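Several members lie next to each other in the RefSeq gene order (GRCm38.p6). Of 12 such neighbouring pairs, 2 had both genes lower, Slc6a13 with Slc6a12 and Slc38a1 with Slc38a2, and none had a higher gene. Over all genes 21.3% were lower and 10.7% higher. The pairs share genes, as Slc36a2 and Slc38a2 recur, and neighbouring pairs were not counted over all genes. Slc38a4, which follows Slc38a2, differed by -1.58 and was not called. Slc7a6 fell by 0.51, while its neighbour Slc7a6os differed by 0.00. The pairs Slc6a18 and Slc6a19, Slc2a5 and Slc2a7, and Slc6a20b and Slc6a20a had no called gene.

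In 300-base promoter windows searched on both strands, CACGTG, the E-box, was found in 2 of 12 higher, 2 of 16 lower and 8 of 56 other members, against 7.15% of all higher genes, 10.7% of all lower genes, 7.83% of genes not called and 7.24% of all promoters. TGATGNAA, a composite amino acid response motif, was found in 1 of 12, 2 of 16 and 2 of 56, against 3.00% of all higher genes, 2.01% of all lower genes, 3.58% of genes not called and 4.06% of all promoters, with Slc7a11 and Slc1a4 as the lower members that hold it. TTTATG, a CDX motif, was found in none of the called members and in 6 of 56 others (10.7%), against 8.71% of all higher genes, 6.07% of all lower genes, 11.1% of genes not called and 12.1% of all promoters. No match says only that these letters are not in this window.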
